A study of Ascaris suum with 12 samples.

Results

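The MSP fiber proteins MFP1 and MFP2 are cytoplasmic partners of the major sperm protein (MSP), the cytoskeletal protein of nematode sperm. Nematode sperm crawl without a flagellum: MSP polymerises into filaments at the front of the pseudopod and is taken apart at its base, in place of actin. In sperm extracts of Ascaris, MFP2 speeds and MFP1 slows the growth of MSP fibers, while MFP3, a further fiber protein, stabilises the filaments. The transcripts described here are the 11 transcripts of 5 genes carrying the annotations MFP1-beta, MFP2b and MFP2c, chosen by gene name, out of 61820 transcripts of 18025 genes in the expression table. MFP1-beta is AgR003_g210 with 3 transcripts and AgR003_g211 with 2 transcripts, MFP2b is AgR017_g211 and AgR017_g212 with 1 transcript each, and MFP2c is AgR032_g081 with 4 transcripts.

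The RNA came from wild-type North American adults of Ascaris suum, a roundworm of the pig intestine. The male germline was dissected into 5 regions, namely the mitotic region, the zone of spermatogenesis, a post-meiotic zone, the seminal vesicle and the spermatids. The female germline was likewise taken as 5 regions: a mitotic one, early and late pachytene, diplotene and the oocyte. No treatment was given. Each region is 1 library of ribosome-depleted total RNA, so replicates are lacking, neither p-values nor errors can be given, and the order of neighbouring levels cannot be set against a spread. The sources used here do not say how many worms went into a library. The table names no unit for its values: they are taken as RPKM, reads scaled to transcript length and library size, from the values and the tools named, and the read numbers and read mass given below rest on that reading. In tissue RNA, fewer cells of a type and less RNA per cell cannot be told apart.

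The 3 loci lie on scaffolds AgR003, AgR017 and AgR032, in the coordinates of the table, whose genome build no source used here names. AgR003_g210 runs on the plus strand from 3639177 to 3641091 in 1 to 3 exons, and AgR003_g211 on the minus strand from 3639705 to 3641129 in 2 exons. AgR017_g211 runs on the plus strand from 3243853 to 3246259 in 2 exons, and AgR017_g212 on the minus strand from 3243856 to 3246259 in 5 exons. MFP1-beta and MFP2b are thus each annotated on both strands of the same stretch, with 1387 bp shared at MFP1-beta (97.3% of the shorter span) and 2404 bp at MFP2b (100%). AgR032_g081 (MFP2c) runs on the minus strand from 1361739 to 1365537 in 4 to 6 exons. Whether reads were counted by strand is not stated, so reads of the 2 genes of such a locus cannot be told apart and their values are not taken as independent.

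None of the 11 transcripts is marked as eliminated from somatic cells or as carrying a spliced leader, the short RNA that nematodes join to the start of many mRNAs. All 11 carry the mark Telo, read here as a capped start of their own found in the study's TeloPrime library of 5' ends. A capped start with no spliced leader is marked for 6.81% of all transcripts and for 37.3% of the 2014 transcripts at 100 RPKM or more in spermatogenesis. It is also marked for 63 of 131 transcripts annotated with major sperm protein or the word MSP (48.1%), called the MSP list below. The same holds for 14 of the 16 other transcripts named for MFP2 or MFP3 (87.5%).

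The MFP genes were abundant in the male germline and near 0 in the female germline. AgR003_g210_t01 (MFP1-beta) was at 762.8 RPKM in the male mitotic region, 1598 in spermatogenesis, 198.4 in the post-meiotic region, 6.8 in the seminal vesicle and 61 in spermatids, and at 1.2, 1, 0.3, 1.3 and 2.1 in the 5 female regions from mitotic to oocyte. AgR003_g211_t01, from the other strand, was at 913.6, 1944.8, 235.4, 9.4 and 70.7 RPKM in the 5 male regions and at 2, 1.4, 0.4, 0.5 and 1.2 in the female regions. Spermatogenesis was the highest region for this locus and late pachytene the lowest. For MFP2b, AgR017_g212_t01 was at 941.4, 1622.5, 160.1, 6.9 and 56.3 RPKM in the male regions and at 1.1, 1.7, 0.5, 2.2 and 2.1 in the female regions. AgR017_g211_t01 was at 382.2, 645.5, 65.7, 2.9 and 22 RPKM in the male regions and at 0.6, 0.6, 0.1, 0.4 and 0.5 in the female regions. The order of the male regions was the same as for MFP1-beta. For MFP2c, AgR032_g081_t02 was at 484.4, 1611.1, 149.2, 5.6 and 41.1 RPKM in the male regions and at 1, 1.1, 0.3, 2.6 and 1.6 in the female regions. Values of the other 6 transcripts lay between the lowest and highest of these 5 in the male regions, with 2 exceptions. AgR032_g081_t04 was the lowest of all in the mitotic region at 325.1 RPKM, and AgR003_g211_t02 the highest in spermatids at 71.4 RPKM.

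**Figure D1:**
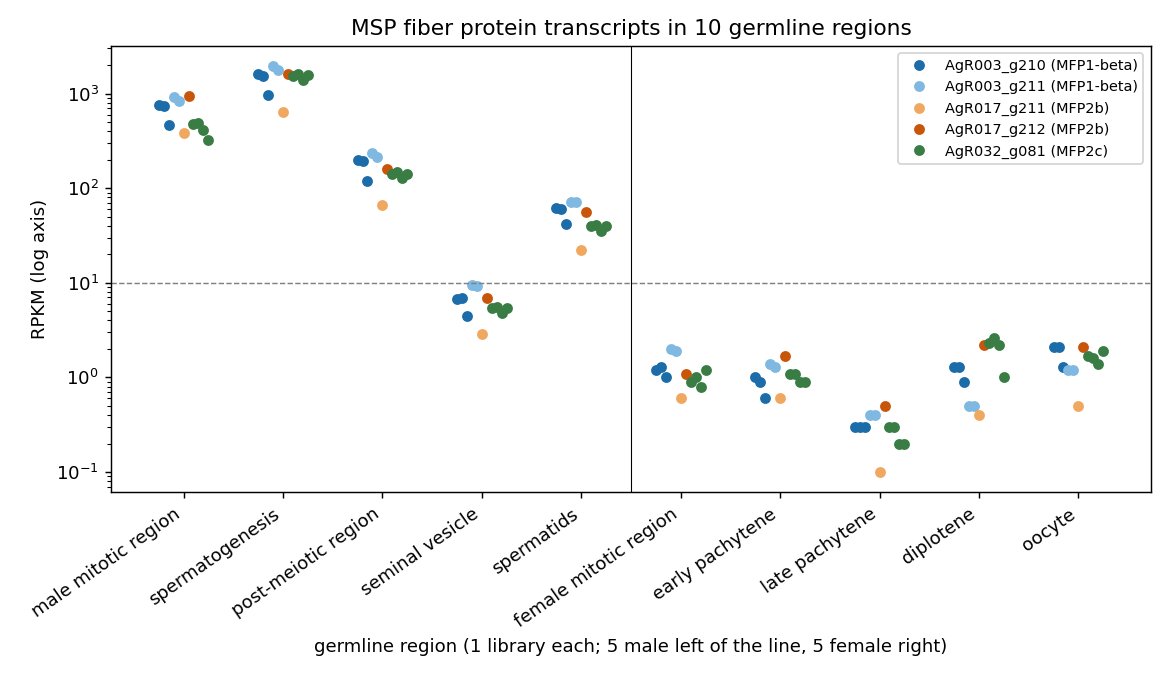
RPKM on a log axis for the 11 transcripts (points, coloured by gene) in the 5 male and 5 female regions, 1 library each, with a dashed line at 10 RPKM. All 11 are highest in spermatogenesis (645.5 to 1944.8 RPKM), and no female value exceeds 2.6 RPKM.

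All 11 transcripts had their highest value in spermatogenesis, against 22.7% of the 32863 transcripts that reached 10 RPKM in some library. The 11 come from 3 loci and may share reads, so they are not 11 independent values. In the spermatogenesis library AgR003_g211_t01 ranked 63 and AgR003_g210_t01 ranked 83 among all transcripts, AgR017_g212_t01 ranked 81 and AgR032_g081_t02 ranked 82. These 4 transcripts, which cover all 3 loci, thus lay between 1598 and 1944.8 RPKM, a scale per transcript length. The next regions in order were the male mitotic region (325.1 to 941.4 RPKM), the post-meiotic region (65.7 to 235.4) and spermatids (22 to 71.4). The seminal vesicle was the lowest male region for all 11, at 2.9 to 9.4 RPKM, and each was still higher there than in any female library. The highest female value of any transcript was 2.6 RPKM, and late pachytene was the lowest library for all 11, at 0.1 to 0.5 RPKM.

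The values of the female germline rest on few reads. Steps between the low values of short transcripts gave depths near 27040000 reads for the male mitotic library, 28010000 for spermatids, 23220000 for the oocyte and 9050000 for diplotene, and no clear depth in the other 6 libraries. At that depth the members had 3 to 35 reads in diplotene and 19 to 58 in the oocyte. AgR003_g210_t01 had about 9 reads in diplotene (exact Poisson 95% interval 4.1 to 17.1) and 36 in the oocyte (25.2 to 49.8), compared with 15346 in the mitotic male library and 1271 for spermatids. Such intervals cover counting error only. The oocyte values were 0.0617% to 0.135% of the spermatogenesis values. Whether the low female reads came from the female germline was not tested.

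The labels were set against markers found by annotation words, 1 transcript a gene. The 17 major sperm protein genes summed to 509.2 to 48931.8 RPKM in the male libraries and to 55.9 to 125.8 in the female ones, with 3 of 17 listed at 0 in the seminal vesicle, 1 in spermatids and 3 to 7 in the female libraries. The sum was 19988.9 in the library labelled male mitotic, with 11 of 17 genes at 10 RPKM or more. In the library labelled spermatids it was 4162.8, against 48931.8 in spermatogenesis. The 16 oocyte and eggshell genes summed to 4841.2 to 33539.8 RPKM in the female libraries and 114.8 to 1762.5 in the male ones, highest in the post-meiotic region. Sums for 24 muscle genes were 1046.6 RPKM in diplotene and 1044.9 in the oocyte, against 79.0 to 389.2 in the other 8 libraries. For 7 intestine and yolk genes the sums were 0.1 to 21.6. The 210 cuticle genes, markers of epidermis, summed to 26121.3 RPKM in the seminal vesicle and 21862.8 in spermatids, against 496.9 to 2109.9 in the other 8 libraries, with 100 of 210 listed at 0 in the seminal vesicle and 83 in spermatids. Of the 210, 11 reached 10 RPKM in the seminal vesicle and 31 in spermatids, against 5 to 33 in the other 8 libraries. The median cuticle gene was at 0.1 RPKM in both, and at 0.1 to 0.3 elsewhere. The 2 male libraries in which the MFP transcripts were lowest are thus those with the highest cuticle sums, though not with more cuticle genes at 10 RPKM than all others. The part of other tissue in the MFP levels was not tested.

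The mitotic regions, where germ cells divide before meiosis, were compared between the sexes. Major sperm protein genes summed to 19988.9 RPKM in the male library, and whether it held cells of later stages was not tested. All 11 transcripts were higher in the male, by 271-fold (AgR032_g081_t04) to 856-fold (AgR017_g212_t01). Calls required a 4-fold difference on RPKM + 1 and at least 10 RPKM in the higher region. In this comparison 18.0% of the 26205 transcripts that reached 10 RPKM were called higher in the male and 11.4% lower. On the log2(RPKM + 1) scale the 11 differences were 7.21 to 8.81 with a median of 7.97, and the median over the 26205 transcripts was -0.26. For AgR017_g212_t01, 0.0382% of those transcripts had a larger difference, and for AgR032_g081_t04, the smallest of the 11, 0.427%.

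From the male mitotic region to spermatogenesis, the stage of meiosis, the MFP genes differed among themselves. MFP2b was 1.69-fold and 1.72-fold higher in spermatogenesis (AgR017_g211_t01 and AgR017_g212_t01), MFP1-beta 2.09 to 2.15-fold, and the MFP2c transcripts t01 to t03 3.26 to 3.33-fold. AgR032_g081_t04 of MFP2c was 4.83-fold higher and was the 1 of 11 transcripts called, where 6.59% of 21929 transcripts were called higher and 29.1% lower. The differences were 0.75 to 2.27 on the log2(RPKM + 1) scale, against a median of -0.80 over those transcripts. The size of this step depends on how the libraries are scaled. After rescaling by median ratios, 11 of 11 were called higher, at 6.63 to 19.0-fold, where 46.1% of transcripts were called higher and 1.05% lower and the median difference was 1.82. The order of the loci (MFP2b, MFP1-beta, MFP2c) is not altered by a scaling that multiplies whole libraries.

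From spermatogenesis to the post-meiotic region, all 11 transcripts were lower. MFP1-beta transcripts were 8.02 to 8.28-fold lower, MFP2b 9.82-fold (AgR017_g211_t01) and 10.1-fold (AgR017_g212_t01), and MFP2c 10.8 to 11.0-fold. With rescaled libraries the 11 folds were larger, at 16.1 to 22.1. Of 17391 transcripts, 36.5% were called lower and 20.8% higher, or 51.8% and 9.73% after rescaling, so a lower value is common in this step. The differences were -3.45 to -3.00 on the log2(RPKM + 1) scale, against a median of -1.16. For AgR003_g210_t02, the least changed of the 11, 11.4% of transcripts had a difference further below 0, and for AgR032_g081_t04, the most changed, 2.23%.

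In each of the remaining male steps all 11 lay on the same side of 0. The seminal vesicle, where sperm are stored, was 22.7 to 29.2-fold lower than the post-meiotic region, with all 11 called, against 34.1% of 11909 transcripts called lower and 8.27% higher. Spermatids were 7.30 to 9.31-fold higher than the seminal vesicle, with all 11 called, against 18.9% of 8995 transcripts called higher and 2.43% lower. Consecutive comparisons share a library, so a low seminal vesicle value enters both. With the seminal vesicle left out, spermatids were 2.84 to 3.63-fold lower than the post-meiotic region, with 0 of 11 called, against 23.1% of 12116 transcripts called lower and 7.4% higher. Between the first and last male libraries in the order listed, spermatids were 8.25-fold (AgR032_g081_t04) to 17.4-fold (AgR017_g211_t01) lower than the mitotic region. All 11 were called, against 41.9% of 21286 transcripts called lower and 6.68% higher. With rescaled libraries this step was smaller for all 11, at 3.49 to 7.34-fold, AgR032_g081_t04 was no longer called, and 14.8% of transcripts were called higher and 15.7% lower. No MFP transcript reached 10 RPKM in a female library, so none could be called in the 4 female steps.

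**Figure D2:**
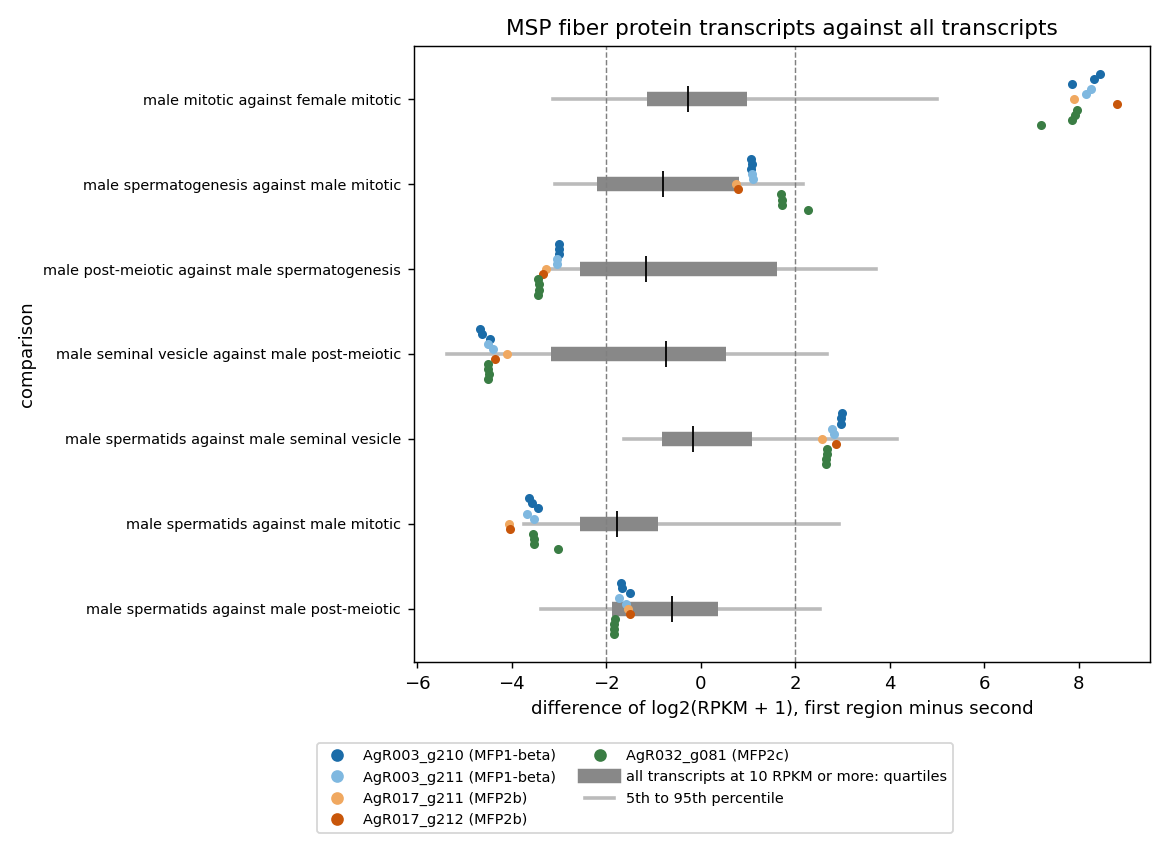
Difference of log2(RPKM + 1), first region minus second, for the 11 transcripts (points, coloured by gene) in 7 comparisons, with the quartiles (thick grey bar), the 5th to 95th percentile (thin grey line) and the median (black tick) of all transcripts whose higher value is at 10 RPKM or more. Dashed lines mark a 4-fold difference; the 11 points lie beyond them in 5 of the comparisons, and in the comparison of the mitotic regions they lie above the 95th percentile.

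The other transcripts named for MFP2 or MFP3 kept higher post-meiotic values relative to spermatogenesis. The table names 10 further genes with 16 transcripts for MFP2 or MFP3, a set put together after its values were seen. AgR008_g015_t01 (sperm cell motility protein mfp2) was at 548.8, 2940.7, 1796.9, 20.4 and 161.8 RPKM from the male mitotic region to spermatids. AgR012_g244_t01 (MFP3) was at 193.1, 1578.4, 1198.7, 9.1 and 54.5 RPKM in the same order. At nearly the same spermatogenesis level as MFP1-beta (1598 RPKM for AgR003_g210_t01), the MFP3 transcript stood at 1198.7 after meiosis where MFP1-beta stood at 198.4.

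As a share of the spermatogenesis value, the post-meiotic region held 12.1% to 12.5% for MFP1-beta, 9.87% and 10.2% for MFP2b and 9.09% to 9.26% for MFP2c. The 15 transcripts of the other MFP genes at 100 RPKM or more in spermatogenesis held 45.9% to 112%, with a median of 69.6%, and did not overlap with the 11. They come from 6 loci, most of them annotated with overlapping genes, so they may share reads and are not 15 independent values. The other transcript, AgR132_g001_t01, went from 18.8 RPKM in spermatogenesis to 2.9 RPKM after meiosis, or 15.4%. The median of the 2014 transcripts at 100 RPKM or more was 25.7%, with quartiles of 12% and 59.3%, so the MFP1-beta, MFP2b and MFP2c values lay around the lower quartile and those of the other MFP genes mostly above the upper one. Mitotic shares were 46.4% to 47.7% for MFP1-beta, 58.0% and 59.2% for MFP2b and 20.7% to 30.7% for MFP2c, against 12% to 22.5% for the 15 other MFP transcripts. Of the 11, AgR032_g081_t04 alone, at 20.7%, lay inside the range of the others, and the remaining 10 lay above it. With 1 library a region these differences between the sets have no test.

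The shares in the last regions were closer together. In spermatids they were 2.51% to 4.31% for the 11 transcripts, 3.26% to 7.06% for the 15 others and 5.0% as the median of all 2014. In the seminal vesicle they were 0.344% to 0.520% for the 11, 0.474% to 1.14% for the 15 and 0.620% as the median of all 2014. The ranges of both MFP sets thus overlapped in the seminal vesicle and in spermatids.

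**Figure D3:**
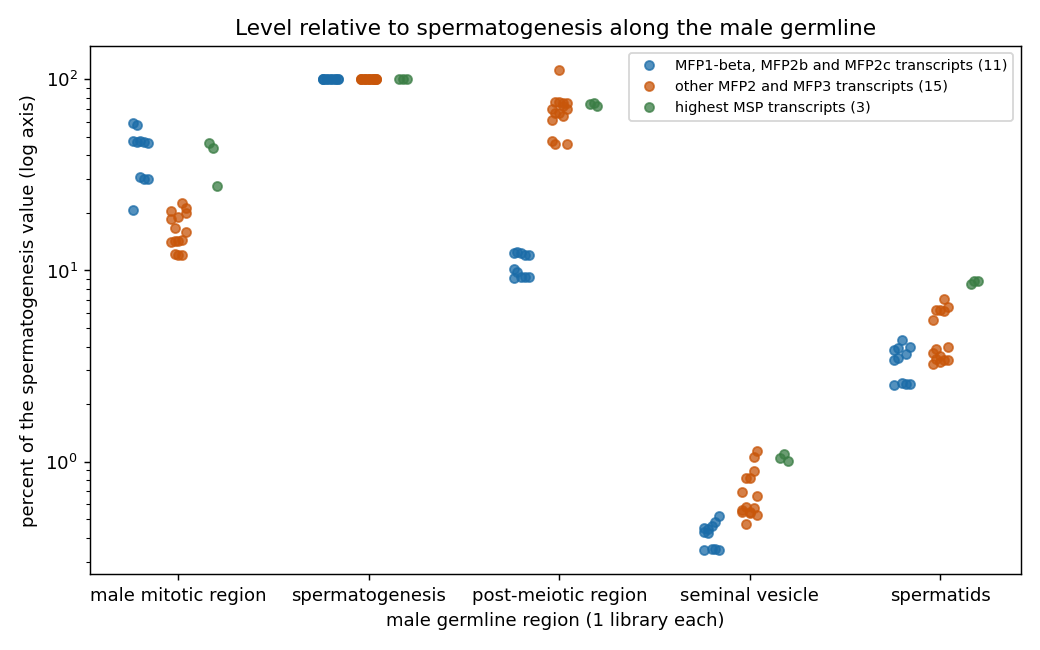
Level in each male region as a percent of the spermatogenesis value (log axis) for the 11 MFP1-beta, MFP2b and MFP2c transcripts, the 15 other MFP2 and MFP3 transcripts at 100 RPKM or more in spermatogenesis, and the 3 highest MSP genes; each point is 1 transcript in 1 library. In the post-meiotic region the first set lies at 9.09% to 12.5% and the others at 45.9% or more.

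The 3 highest genes of MSP itself, the filament subunit, had post-meiotic shares like those of the other MFP genes. AgE02_g017_t02 (MSP isoform beta) held 46.7% of its spermatogenesis value in the mitotic male library, then 73.9%, 1.05% and 8.45% in the 3 later regions. The post-meiotic shares of AgE02_g037_t01 (isoform beta) and AgB02_g504_t01 (isoform alpha) were 75.3% and 72.8%. The sperm-specific protein transcripts AgR086_g007_t01, AgR086_g004_t03 and AgR086_g006_t04 held 122%, 125% and 116% there. The spans of AgE02_g017_t02 and AgE02_g037_t01 overlap, as do those of AgR086_g007_t01 and AgR086_g004_t03, so these values may share reads. Over the 66 transcripts of the MSP list at 100 RPKM or more in spermatogenesis the post-meiotic share ran from 7.23% to 118%. The quartiles were 11.9% and 71.5%, so the MSP list itself holds transcripts at the level of MFP1-beta and MFP2b. The list takes any annotation with major sperm protein or the word MSP and has 49 genes, against 17 genes among the markers above. Whether all its members are the filament subunit was not checked.

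By list, 34 of 131 transcripts of the MSP list (49 genes) were called higher in spermatogenesis than in the mitotic region and 0 lower. In the post-meiotic region 65 of 131 were called lower and 0 higher. Of the 119 transcripts of this list at 10 RPKM or more these were 28.6% and 54.6%, beside 6.59% higher and 36.5% lower among all transcripts at that level. Sperm-named transcripts were called higher in 5 of 77 and lower in 0 in the first step, and lower in 14 and higher in 0 in the second, which is 12.2% and 34.1% of the 41 at 10 RPKM or more. The second share is below the 36.5% of all transcripts. The other MFP transcripts, all 16 at 10 RPKM or more, were higher in 15 in the first step and lower in 1 (6.25%) in the second.

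Actin and tubulin, the usual cytoskeleton of other crawling and swimming cells, were counted for comparison. Actin transcripts were lower in 25 of 137 and higher in 0 in the first step, and higher in 31 and lower in 0 in the second. Of those at 10 RPKM or more these were 20.8% lower and 25.2% higher, beside 29.1% lower and 20.8% higher among all transcripts. Tubulin transcripts were higher in 2 of 95 and lower in 15 in the first step (3.70% and 27.8% at 10 RPKM or more), and higher in 12 and lower in 21 in the second (21.8% and 38.2%). Over transcripts at 10 RPKM or more, the median differences in the second step were -2.14 for MSP, -1.79 for the sperm-named list, -0.55 for the other MFP transcripts, -0.01 for actin and 0.04 for tubulin, against -1.16 for all. With rescaled libraries, 0% of actin and tubulin transcripts were lower in the first step, beside 1.05% of all transcripts at 10 RPKM or more. In the second, 27.7% of all listed actin transcripts were lower, beside 51.8% of all transcripts at that level. No direction is drawn for these lists.

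The opposite-strand genes kept a nearly fixed ratio in the male germline. AgR003_g211_t01 was at 1.20, 1.22, 1.19, 1.38 and 1.16 times the value of AgR003_g210_t01 in the male regions from mitotic to spermatids, and AgR017_g212_t01 at 2.46, 2.51, 2.44, 2.38 and 2.56 times that of AgR017_g211_t01. Over the 10 regions the Pearson r on the log2(RPKM + 1) scale was 0.9964 for the MFP1-beta genes and 0.9978 for the MFP2b genes. Of 1351 gene pairs with overlapping spans on opposite strands and both genes at 10 RPKM or more in some library, 11.7% had an r of 0.99 or more, and the median was 0.8189. Among the 259 of these pairs that share a descriptive annotation it was 0.9603.

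In the female libraries the strand ratios were more spread, at 1.67, 1.40, 1.33, 0.385 and 0.571 from mitotic to oocyte for MFP1-beta and at 1.83, 2.83, 5.00, 5.50 and 4.20 for MFP2b. Reads behind them can be given in diplotene and the oocyte. For MFP1-beta, AgR003_g211_t01 had about 3 reads (0.6 to 8.8) against 9 (4.1 to 17.1) for AgR003_g210_t01 in diplotene, and 20 (12.2 to 30.9) against 36 (25.2 to 49.8) in the oocyte. AgR003_g211_t01 thus had the lower RPKM of both strands in these libraries and the higher in the 5 male ones, and the difference was not tested. For MFP2b, AgR017_g212_t01 had about 23 reads (14.6 to 34.5) against 7 (2.8 to 14.4) for AgR017_g211_t01 in diplotene, and 57 (43.2 to 73.9) against 23 (14.6 to 34.5) in the oocyte. More reads were assigned to the minus-strand model of MFP2b in both libraries, as also in the male libraries, where RPKM times length was 1.38 to 1.48 times that of the plus-strand model. Reads on overlapping exons may enter both counts, which are then not independent, and the difference between the sexes in these ratios was not tested.

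**Figure D4:**
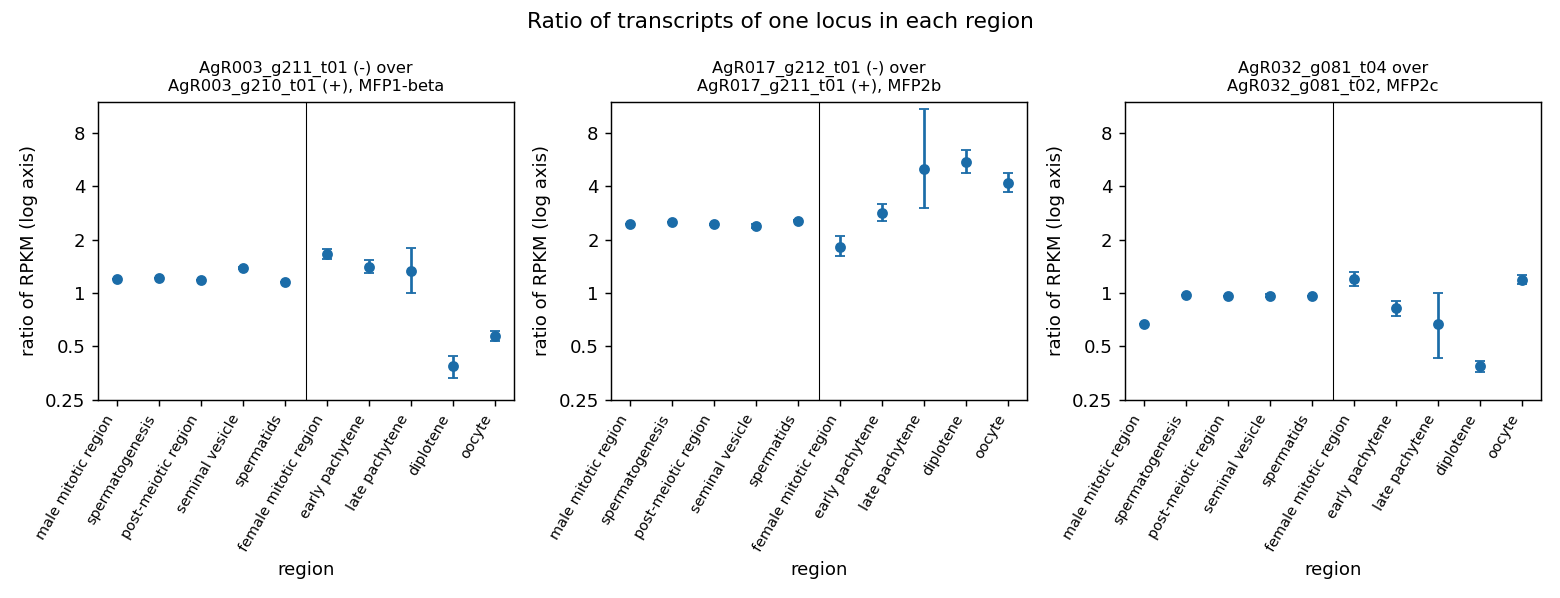
Ratio of RPKM (log axis) of the minus-strand to the plus-strand gene at MFP1-beta and MFP2b, and of the short MFP2c transcript AgR032_g081_t04 to AgR032_g081_t02, in each region; bars show what rounding of the RPKM values to 1 decimal allows, with no replicate error. The strand ratios hold at 1.16 to 1.38 and 2.38 to 2.56 in the male libraries, and the MFP2c ratio is 0.671 in the male mitotic region and 0.957 to 0.975 in the other 4 male regions.

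The MFP2c transcripts t02 and t03 carried nearly the same read mass. RPKM times length in kb, which is proportional to reads, was 2409 for AgR032_g081_t02 (1495 nt) and 2409 for AgR032_g081_t03 (1740 nt) in spermatogenesis, and 724 for both in the male mitotic region. AgR032_g081_t03 is 245 nt longer and reaches 245 bp further at its 5' end. Summing the transcripts of a gene may therefore count reads more than once. For AgR003_g210, the intron-free transcript t03 held 87.5% of the read mass of t02 in spermatogenesis, 88.2% in the mitotic region and 96.6% in spermatids.

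The short MFP2c transcript departed from the others in the male mitotic region. AgR032_g081_t04 has 911 nt, or 60.9% of the length of t02, and its span starts 1270 bp inside that of t02 on the 3' side. Its read mass was 40.9% of that of t02 in the mitotic region and 59.4%, 58.3%, 58.8% and 58.4% in spermatogenesis, the post-meiotic region, the seminal vesicle and spermatids. In reads, this is about 8008 (7833.6 to 8185.3) against 19582 (19308.7 to 19858.2) in the mitotic region and 1005 (943.8 to 1069.1) against 1721 (1640.6 to 1804.3) in spermatids. The mitotic library held 20.7% of the spermatogenesis value for t04 and 43.8% for the difference in read mass between t02 and t04. In the post-meiotic region, the seminal vesicle and spermatids these shares were 9.09% and 9.51%, 0.344% and 0.353%, and 2.51% and 2.61%. In the female libraries, on few reads, t04 held 23.4% to 73.1% of the read mass of t02. Exon positions are not in the table, and how reads were assigned among transcripts is not stated. The lower mitotic share of t04 was therefore not traced to a stretch of MFP2c. The difference between t02 and t04 is a subtraction of values, as the exons they share are not known.

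Between the 5 member genes, each by its highest transcript, r over the 10 regions on the log2(RPKM + 1) scale ran from 0.9896 (AgR003_g211 and AgR032_g081) to 0.9981 (AgR003_g210 and AgR017_g212). These values are a description: the regions share libraries across genes, and all 5 genes are high in male and near 0 in female libraries. Outside the members, 23 (AgR003_g211) to 69 (AgR017_g211) of 9030 genes had an r of 0.99 or more with a member gene, and 567 to 756 an r of 0.95 or more. The 5 most alike genes with a descriptive annotation for each member came to 11 genes in all. Paxillin (AgE02_g028_t03), an adaptor of cell adhesion sites in animals, was among them for 4 of the 5 member genes, with r = 0.9996 for AgR003_g210. It was at 522.9, 1061.7, 140.1, 6.3 and 49.3 RPKM in the male regions. A purple acid phosphatase-like protein (AgR004_g200_t01, r = 0.9983 for AgR003_g210), methylmalonyl-CoA epimerase, an enzyme of propionate metabolism (AgE03_g012_t01, r = 0.9969 for AgR032_g081), and the acetyltransferase component of pyruvate dehydrogenase (AgR073_g007_t04, r = 0.9968 for AgR032_g081) were also among the 5 for 4 member genes.

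The other 7 genes most alike were named for 1 or 2 member genes. For AgR003_g210 these were integrator complex subunit 7 (AgR008_g136_t02, 0.9959) and the clpx subunit of the clp protease (AgB03_g243_t01, 0.9954). For AgR017_g211 they were tyrosine-protein phosphatase non-receptor type 9 (AgR046_g072_t01, 0.9977), complement component c6 (AgB06_g085_t03, 0.9973) and regulator of microtubule dynamics protein 2 (AgE01_g017_t03, 0.9960). For AgR032_g081 they were p40 (AgR010_g098_t02, 0.9955) and an excitatory amino acid transporter (AgB04_g462_t01, 0.9940). Which genes come first is not firm, since 9 of the 25 pairings of a member and a gene remained with a pseudocount of 0.1 and 2 of 25 with Spearman's rho.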

How the data were processed

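RNA of 10 germline regions was measured by RNA-seq of ribosome-depleted total RNA prepared with a TotalScript kit, per the labels' protocols. TopHat2 and Cufflinks were used, per the submitters' processing notes, which give no versions. No source used here names the genome build, the annotation or whether strand was used. A table of values read here as RPKM, rounded to 1 decimal, was deposited by the authors with 1 column per region, with transcript positions, lengths, annotations and flags for start type and elimination. Column sums were 1090760 to 1610771, so the libraries have no common total. All value columns had a sample (0 without one), and 15 columns were empty. The 2 libraries of 5' ends from a mixed sample are not analysed here beyond the start flags.

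Each region is 1 library, so a difference is that of log2(RPKM + 1), with no test, and low transcripts are understated. A call needs a 4-fold difference on that scale and 10 RPKM or more in the higher region. Percentages of all transcripts called are over those reaching 10 RPKM; for lists they are over the whole list unless the text says over those at 10 RPKM or more. Lists match annotation words: the MSP list takes major sperm protein or MSP as a whole word, and the sperm markers take major sperm protein. Named genes were the members, the 5 most alike genes with a descriptive annotation per member gene, by Pearson r over 10 regions with 1 transcript a gene, and the 3 highest of the MSP and sperm-named lists. The members and lists were chosen with earlier results of these data known. For depth, the values of transcripts shorter than 250 nt were searched for the library size at which they step by whole reads, and a size was kept if it scored 1.5 times the runner-up or better, a bound chosen after seeing the scores. Alternatives were a pseudocount of 0.1, no filter, a 2-fold threshold, rescaling by median ratios (15277 transcripts at 1 RPKM or more in each library), removal of the 100 highest transcripts, sums per gene, and each region left out. Calls and depth were tested on simulated data. Work used Python 3.11.15, pandas 2.3.3, numpy 2.4.6 and scipy 1.17.1.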

Additional observations from a re-analysis of the deposited data

How the results depend on the processing

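Of the member counts, the number of transcripts higher in spermatogenesis than in the male mitotic region was 1 as reported. It was 9 at a 2-fold threshold and 11 with rescaled libraries, where 46.1% of all transcripts at 10 RPKM or more were called higher. The number lower in spermatids than in the post-meiotic region was 0 as reported and 11 at a 2-fold threshold. Shares of all transcripts called at 2-fold were not computed. On the log2(RPKM + 1) scale the upper quartile of all transcripts at 10 RPKM or more was 0.81 in the first comparison, short of 2-fold. The lower quartile was -1.87 in the second, beyond 2-fold. The other member counts stayed within 1.5-fold of the reported count under the alternatives run. AgR032_g081_t04 in spermatids against the male mitotic region passed from called to not called with rescaled libraries, at -1.78 on the log2 scale, and no called difference changed sign. Spermatogenesis was the highest region of all 5 genes also with rescaled libraries and with sums per gene. Of the 25 named pairings of alike genes, 9 remained with a pseudocount of 0.1, 2 with Spearman's rho and 14 to 24 with a region left out, lowest without the post-meiotic region. For the lists, as a share of the whole list, rescaled libraries gave 86.3% of MSP and 50.6% of sperm-named transcripts higher in spermatogenesis than in the mitotic region, 9.47% of tubulin transcripts higher, and 0% of actin and tubulin transcripts lower. Among all transcripts at 10 RPKM or more, an unlike base, 46.1% were then higher and 1.05% lower. In the post-meiotic step rescaled libraries gave 48.1% of sperm-named, 27.7% of actin and 25% of other MFP transcripts lower. All 3 shares are below the 51.8% lower among all transcripts at 10 RPKM or more. With 1 transcript a gene, 29% of actin genes were lower and 3.85% of tubulin genes higher in the first step, and 7.69% of tubulin genes were higher, 11.5% lower and 0% of other MFP genes lower in the second. The cause of these shifts was not tested. No paired analysis was possible because each region has 1 library. Values under 3 RPKM in the female libraries rest on few reads, and depth was not resolved in 6 libraries.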
